A study of Mus musculus with 4 samples.

Results

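The skeletal muscle contractile genes in tibial bone marrow were examined in obese mice (Ob) and in obese mice that had exercised (Ob + Exe). The 10 genes, *Acta1*, *Myh1*, *Myh4*, *Mylpf*, *Myl1*, *Tnnt3*, *Ckm*, *Ttn*, *Actn3* and *Pvalb*, were chosen by name as the core of fast-twitch muscle. The choice was made with earlier results of these data known. All 10 were found among the 55291 gene names of the transcript tables. All the mice were wild-type C57/B6 males that received a high-fat diet (HFD) from the age of 8 weeks, for 6 weeks before the groups were formed. The Ob mice are labelled HFD, and the Ob + Exe mice, labelled HFD and Exercise, then ran on a treadmill at moderate intensity for 12 weeks. Per the study, the HFD went on in both groups during these weeks, and the Ob mice had no other intervention. RNA-seq libraries of 2 mice per group were compared, and the comparison asks how exercise remodels the marrow in diet-induced obesity. The labels also name a cell line (mesenchymal stem cells) and a cell type (fibroblast), but blood cell genes filled the libraries. Summed levels of 8 neutrophil markers ranged from 27162 to 63426 FPKM (fragments normalized for transcript length and library size, then scaled between libraries), and those of 8 erythroid markers from 47818 to 75731. Summed levels of 8 stromal and fibroblast markers ranged from 107 to 163. Each library held between 44310505 and 53038186 reads on transcripts, estimated from coverage and given as read equivalents.

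A skeletal muscle fiber is filled with sarcomeres, in which myosin heads of the thick filament pull on actin of the thin filament. Troponin on the thin filament opens the myosin sites when calcium is released, titin spans the sarcomere from the Z-disc to its middle, and alpha-actinin anchors the thin filaments at the Z-disc. Fast-twitch fibers also hold parvalbumin, which binds calcium, and much creatine kinase, which restores ATP. Marrow itself holds no skeletal muscle fibers, and its cells build their cytoskeleton from the nonmuscle forms of the same proteins.

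The muscle genes made up a very small part of the marrow RNA. The 10 genes together held 0.00231% and 0.00139% of all FPKM in the Ob libraries against 0.00312% and 0.00298% in the Ob + Exe libraries. Their summed level was 10.6 and 6.04 scaled FPKM in Ob against 13.4 and 14.9 in Ob + Exe, on 910, 421, 1065 and 966 read equivalents. Both exercised libraries thus lay above both obese libraries in the sum, and Ob replicate 2 stood lowest. All 10 genes were above 0 in Ob replicate 1 and in Ob + Exe replicate 2, but only 6 were in Ob replicate 2 and 7 in Ob + Exe replicate 1. In these whole-marrow libraries, fewer cells of a type and less RNA per cell cannot be told apart.

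The promoters of the most abundant members are shown first, since the transcripts of these genes carry the comparison. RefSeq promoter windows of 300 bases (250 before the start and 50 after it, GRCm38.p6) were used for 8 of the 10 genes, and those of *Tnnt3* and *Actn3* were not analysed here. The windows of *Acta1*, *Mylpf* and *Myh4* are given 5′ to 3′, with the capitals marking matches on either strand to the E-box CANNTG bound by myogenic factors, the TATA box TATAAA and the CArG box of serum response factor. The third gene is shown because it holds the same kinds of match as the first but was close to 0 in the marrow.
*Acta1* promoter, chr8:123894726-123895025, minus strand: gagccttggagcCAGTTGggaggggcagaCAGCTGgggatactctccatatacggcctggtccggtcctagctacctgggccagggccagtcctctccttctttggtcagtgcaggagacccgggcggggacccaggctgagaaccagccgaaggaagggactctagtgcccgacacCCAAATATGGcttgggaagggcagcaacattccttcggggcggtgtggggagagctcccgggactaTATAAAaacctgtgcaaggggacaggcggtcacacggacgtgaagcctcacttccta
*Mylpf* promoter, chr7:127211358-127211657, plus strand: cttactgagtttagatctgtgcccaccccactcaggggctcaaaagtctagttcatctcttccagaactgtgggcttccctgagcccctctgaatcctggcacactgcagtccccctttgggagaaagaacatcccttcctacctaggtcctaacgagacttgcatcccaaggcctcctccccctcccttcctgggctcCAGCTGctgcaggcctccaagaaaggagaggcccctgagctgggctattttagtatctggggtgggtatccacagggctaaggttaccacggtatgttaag
*Myh4* promoter, chr11:67237562-67237861, plus strand: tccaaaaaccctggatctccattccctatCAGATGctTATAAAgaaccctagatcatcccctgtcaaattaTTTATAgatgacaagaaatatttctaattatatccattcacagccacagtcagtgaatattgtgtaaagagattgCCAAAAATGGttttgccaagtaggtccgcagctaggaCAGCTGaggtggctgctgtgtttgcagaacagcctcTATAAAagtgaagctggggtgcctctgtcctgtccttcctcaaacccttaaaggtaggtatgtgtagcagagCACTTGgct

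Counted from the RefSeq start, the *Acta1* window held E-boxes at -238 and -221, a CArG box at -73 and a TATAAA at -7. The first base of the transcript that carried its FPKM lies 24 bp downstream of that start. The *Mylpf* window held a single E-box at -51 and neither of the other motifs. The *Myh4* window held E-boxes at -221, -67 and 42, TATA matches at -213, -179 and -31, and a CArG box at -104. None of these matches overlapped another. Over the 8 genes with a window, 7 held an E-box, 4 a TATA match, 2 a CArG box and 1, *Ttn*, a MEF2 site. The same motifs were found in 72.3%, 13.6%, 1.63% and 0.557% of all 32851 RefSeq promoter windows of that length. E-boxes are therefore common in promoters, and the matches are a description of the letters only.

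Among the thin filament genes, *Acta1* (ENSMUSG00000031972.5, chromosome 8, 123891769 to 123894751, minus strand) encodes skeletal muscle alpha-actin. Its level was 2.58 and 0.998 scaled FPKM in the Ob libraries against 4.61 and 5.29 in the Ob + Exe libraries, on 254, 96, 392 and 417 read equivalents. Both exercised libraries lay above both obese libraries, and the obese libraries differed more from each other than the exercised ones did. The means were 1.79 ± 1.12 in Ob against 4.95 ± 0.479 in Ob + Exe (SD, n = 2). On the log2(FPKM + 0.1) scale the difference, Ob + Exe against Ob, was 1.55 with an SE of 0.50, with an unadjusted p of 0.0219 and a Benjamini-Hochberg adjusted p of 0.96 in the limma fit over 18582 genes. A gene was called at an unadjusted p under 0.05 with a log2 fold change beyond 1, so *Acta1* was called higher and its difference was not significant after adjustment. An exact permutation test of 2 libraries against 2 cannot give a two-sided p below 0.333. The call was lost without Ob replicate 2, where the difference was 0.91, and without either exercised library, where it was 1.65 without Ob + Exe replicate 1 and 1.46 without Ob + Exe replicate 2.

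One *Acta1* transcript of 7 exons and 1446 bases held the whole level. Of its 1397 windows of 50 bases, 31 (2.22%) occurred in transcripts of other genes, among them *Actb*, the nonmuscle beta-actin. *Actb* was at 1802 and 1594 scaled FPKM in Ob against 1834 and 1961 in Ob + Exe, so it also lay higher in both exercised libraries, by 0.16 on the log2 scale. Reads of beta-actin placed on *Acta1* were not tested as a part of the difference. *Acta2*, the smooth muscle actin, was at 1.95 and 1.12 in Ob against 1.90 and 3.55 in Ob + Exe, and its groups overlapped.

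*Tnnt3* (chromosome 7, 142498836 to 142516009, plus strand) encodes fast skeletal troponin T, which ties the troponin complex to tropomyosin. Its level was 1.37 and 0.406 scaled FPKM in Ob against 1.29 and 1.49 in Ob + Exe. Ob replicate 2 stood low and the other 3 libraries lay together, so the groups overlapped. The log2 difference was 0.79 with an SE of 0.64 and did not pass the test. Its transcripts differed between the libraries. A transcript of 18 exons held 0.891% of the level in Ob replicate 1, but 72.9% in Ob replicate 2 and 100% and 97.2% in the exercised libraries. Ob replicate 1 spread its reads over 9 of the 27 annotated transcripts, against 2, 1 and 2 in the other libraries. The gene lies partly across *Prr33* on the opposite strand, at 3.66 and 1.53 in Ob against 1.37 and 5.87 in Ob + Exe. Strand use in counting was not given in the sources used here, and reads of a pair of such genes cannot be told apart without it.

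Among the thick filament genes, *Mylpf* (ENSMUSG00000030672.12, chromosome 7, 127208890 to 127214298, plus strand) encodes the fast regulatory myosin light chain. It was the most abundant of the 10 genes, at 4.63 and 4.11 scaled FPKM in Ob against 6.32 and 5.13 in Ob + Exe. The exercised libraries lay above the obese ones, with means of 5.73 ± 0.840 against 4.37 ± 0.366 (SD, n = 2). The log2 difference was 0.38 with an SE of 0.29 and did not pass the test (adjusted p = 0.96, limma).

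The 6 annotated transcripts of *Mylpf* were grouped by where they begin. An upstream group of 2 begins at 127208890 and 127208899, the first of them 422 bp from the end of *Tbc1d10b*, a gene on the opposite strand. The full-length transcript whose start is shown in the promoter sequence begins at 127211608, which is 2718 bp downstream of the first of these, and 3 short transcripts begin inside the gene. The upstream start held 3.80 and 2.78 scaled FPKM in the Ob libraries, but was listed at 0 and at 1.12 in the Ob + Exe libraries. The downstream start held 0.187 and 0.567 in Ob against 5.42 and 3.61 in Ob + Exe. Thus the upstream start carried 82.0% and 67.5% of the *Mylpf* level in obese marrow, while the downstream start carried 85.7% and 70.4% of it in exercised marrow, and the groups did not overlap for either start. The downstream transcript rested on 10 and 29 read equivalents in Ob and on 244 and 151 in Ob + Exe. The 3 short internal transcripts held between 7.83% and 18.7% in all 4 libraries. The split by start was chosen after its values were seen and was not tested, and it depends on how StringTie shared the reads among overlapping transcripts. The neighbor *Tbc1d10b* was at 38.6 and 43.6 in Ob against 50.8 and 50.1 in Ob + Exe.

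**Figure D1:**
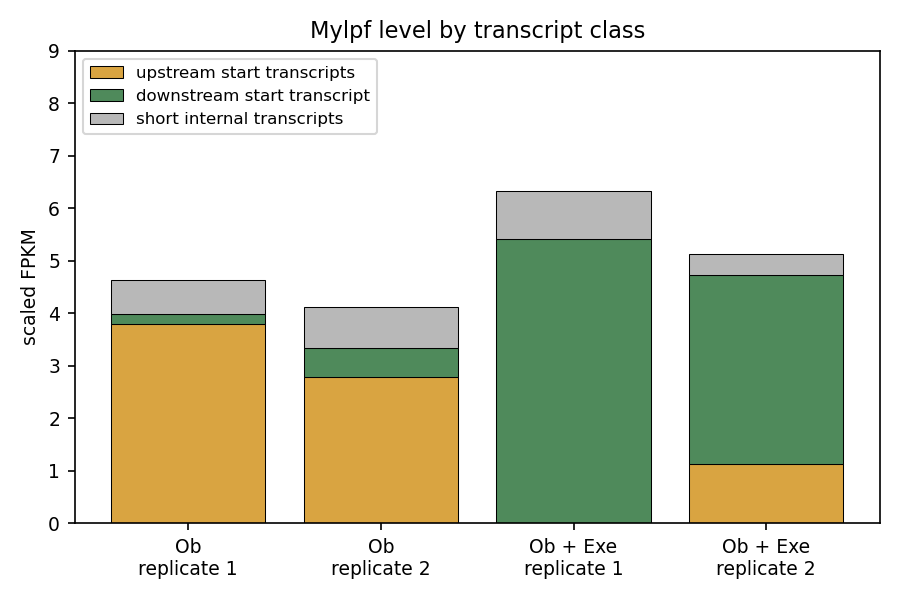
Level of *Mylpf* in each library (bar height, scaled FPKM), divided by the start of its transcripts; colors mark the upstream start, the downstream start and the short internal transcripts. The downstream start holds 5.42 and 3.61 FPKM in the Ob + Exe libraries and at most 0.567 FPKM in the Ob libraries.

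*Myl1* encodes the fast essential light chain of myosin. Its level was 0.260 and 0.207 scaled FPKM in Ob, listed at 0 in Ob + Exe replicate 1 and 1.44 in Ob + Exe replicate 2. The exercised libraries were thus the lowest and the highest, and the log2 difference of 0.24 had an SE of 1.34. Most of it came from a short transcript that begins inside the gene, at 0.260, 0.207, 0 and 1.10. The long transcript, which encodes the N-terminally extended form, was listed above 0 in Ob + Exe replicate 2 alone, at 0.340. The short one shares 242 of its 754 windows of 50 bases (32.1%) with the pseudogene *Mylf-ps*, itself at 0.265 and 0.285 in Ob against 0 and 0.0366 in Ob + Exe, so the level of *Myl1* is uncertain.

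The genes of the motor proteins themselves were close to 0. *Myh4*, the myosin heavy chain of the fastest (IIb) fibers, was at 0.0657 and 0 scaled FPKM in Ob against 0.133 and 0.0956 in Ob + Exe, on 27, 0, 47 and 31 read equivalents. Its 2 exercised libraries lay above both obese ones. *Myh1*, the heavy chain of IIx fibers, was at 0.112 and 0 in Ob against 0 and 0.0106 in Ob + Exe, so Ob replicate 1 stood highest. Both genes missed the minimum mean level of 0.1 FPKM and were not tested. The heavy chain genes lie in a row on chromosome 11 and share sequence. Of 50-base windows, 32.1% in *Myh1* and 18.9% in *Myh4* occurred in another gene, and *Myh2*, *Myh8* and *Myh13* were listed at 0 in all 4 libraries.

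Of the genes for titin and the Z-disc, *Ttn* encodes titin, the giant spring of the sarcomere. *Ttn* was at 0.0324 and 0.00999 scaled FPKM in Ob against 0.0184 and 0.00717 in Ob + Exe, the lowest mean of the 10. Its great length still gave 99, 71, 116 and 42 read equivalents, and the groups overlapped. *Actn3*, the alpha-actinin of fast fibers, was at 0.311 and 0.305 in Ob against 0.554 and 0.216 in Ob + Exe, so the exercised libraries enclosed the obese ones (log2 difference 0.16, SE 0.70).

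The calcium and energy genes were listed at 0 in some libraries. *Pvalb*, parvalbumin, was at 0.634 and 0 scaled FPKM in Ob against 0 and 0.867 in Ob + Exe, on 41, 0, 0 and 45 read equivalents. Each group thus held 1 library with the gene and 1 without it (log2 difference 0.20, SE 1.46). *Ckm*, the muscle creatine kinase, was at 0.603 and 0 in Ob against 0.474 and 0.365 in Ob + Exe, with a log2 difference of 0.96 and an SE of 1.06. Its level came from a transcript of 2742 bases that ends 1257 bp past the end of the shorter muscle transcript, and that shorter transcript was listed at 0 in all 4 libraries. *A930016O22Rik* on the opposite strand shares 315 (11.7%) of its 50-base windows. A listed 0 need not mean that a transcript was absent. All 37 mitochondrial transcripts are at 0 in all 4 libraries too, and the cause of the zeros was not tested for these or for the muscle genes.

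**Figure D2:**
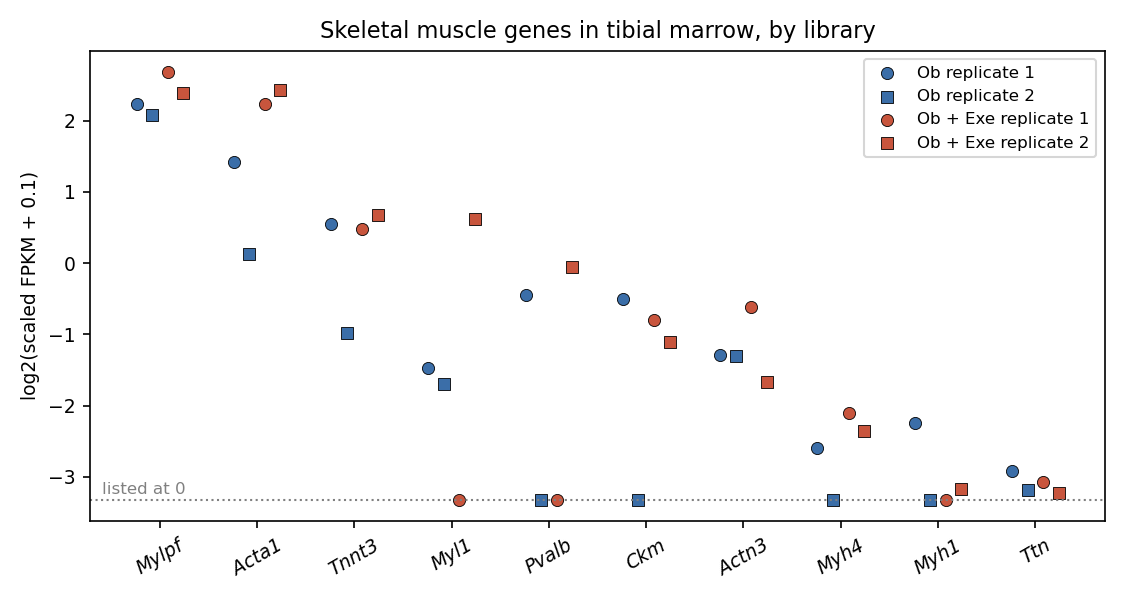
Level of each of the 10 muscle genes in each of the 4 libraries, as log2(scaled FPKM + 0.1), ordered by mean level from *Mylpf* to *Ttn*; the dotted line marks genes listed at 0. *Acta1* and *Mylpf* lie higher in both Ob + Exe libraries, and Ob replicate 2 is at or near the bottom for most genes.

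The members thus differed widely in level and in pattern. The order of mean levels per length was *Mylpf* at 5.05, *Acta1* at 3.37, *Tnnt3* at 1.14, *Myl1* at 0.478, *Pvalb* at 0.375, *Ckm* at 0.361, *Actn3* at 0.346, *Myh4* at 0.0737, *Myh1* at 0.0306 and *Ttn* at 0.0170 scaled FPKM. Every neighboring pair overlapped over the 4 libraries except *Actn3* and *Myh4*. *Mylpf* ranked 8199 and *Acta1* 9372 among the 18582 genes tested. These 2 genes made up 68.0% and 84.6% of the summed member level in Ob against 81.6% and 69.9% in Ob + Exe. Their ratio was not fixed, with *Acta1* at 0.558 and 0.243 of *Mylpf* in Ob against 0.730 and 1.03 of it in Ob + Exe. Ob replicate 2 was lowest, ties included, for 7 of the 10 genes and highest for 0 of them.

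Of the 10 genes, 7 reached the minimum level and were tested. All 7 had a positive log2 difference, with a median of 0.38, against -0.02 over all genes tested. A positive difference was found for 8960 of the 18582 genes. The differences of *Myl1*, *Ckm*, *Actn3* and *Pvalb* turned negative when a certain library was left out, and that of *Myl1* also with voom. Of the 7 members, 1 gene (*Acta1*) was called higher and 0 were called lower, by limma and by voom, and *Acta1* was also the sole member with an unadjusted p under 0.05. Over all 18582 genes, 0.996% were called higher and 2.74% were called lower. Both exercised libraries lay above both obese libraries for 2 of the 7 tested genes and below for none, and the other 5 overlapped. Over all genes the shares were 14.3% above and 18.4% below. The median of the 7 was 1.56 without Ob replicate 1, 0.13 without Ob replicate 2, 0.88 without Ob + Exe replicate 1 and 0.68 without Ob + Exe replicate 2. With each gene represented by its most abundant transcript, the log2 difference of *Acta1* stayed at 1.55 but lost its call (unadjusted p = 0.0541, limma). *Mylpf* and *Tnnt3* gained a call in that setting, with log2 differences of 3.37 and 2.80, where 932 genes were called over all genes. The transcript was chosen by its mean over these same 4 libraries, so the gained calls are no separate support.

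The muscle forms were a small part of each protein family in marrow. *Acta1* held 0.109% and 0.0503% of the sum of *Acta1*, *Actb* and *Actg1* in Ob against 0.193% and 0.188% in Ob + Exe. Both exercised libraries lay above both obese ones in this share. It has the same *Acta1* level as its numerator, so its order is no separate support. *Mylpf* held 3.80% and 4.84% of its sum with the nonmuscle regulatory light chains *Myl12a* and *Myl12b* in Ob against 7.48% and 4.92% in Ob + Exe. *Actn3* held at most 0.827% beside *Actn1* and *Actn4*. *Myh4* held at most 0.290% and *Myh1* at most 0.201% beside the nonmuscle heavy chains *Myh9* and *Myh10*. *Myl1* held at most 0.844% beside *Myl6*. *Ckm* was listed at 0 in Ob replicate 2 and held 5.07% at most beside the brain-type *Ckb* in the others. The 12 nonmuscle counterparts were all tested, 6 lay higher and 6 lower in Ob + Exe, and 0 were called by limma or voom, with 0 at an unadjusted p under 0.05. Beside these stand 695 genes called by limma, 455 by voom and 938 at such a p in limma, of all 18582 tested. Of the 3 most abundant, *Actg1* differed by 0.56 and *Tpm3* by 0.27 on the log2 scale, neither past the test.

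**Figure D3:**
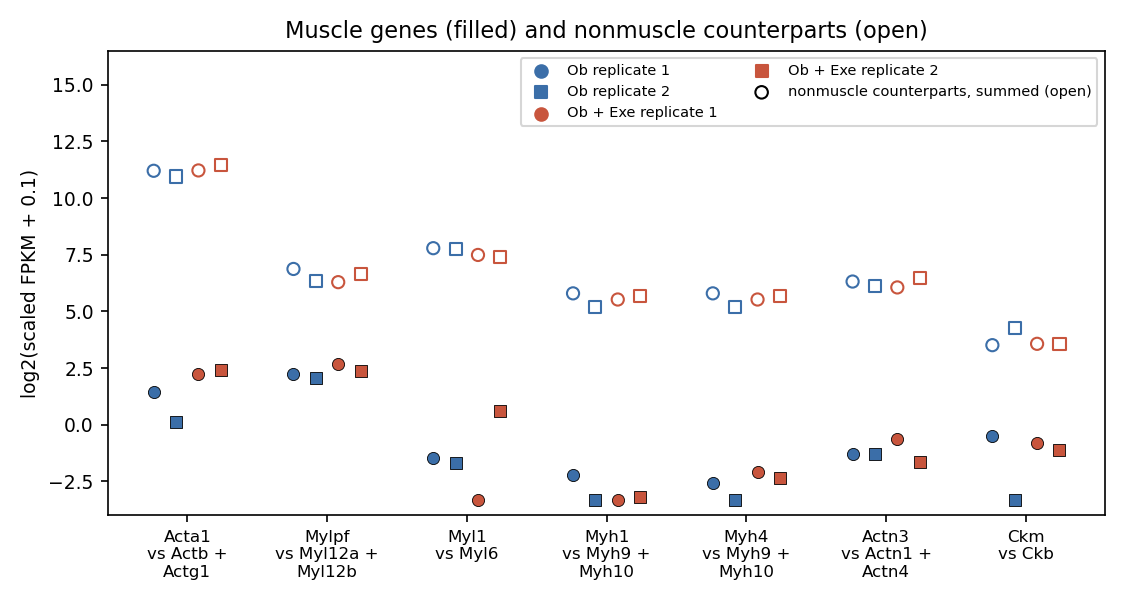
Level of 7 muscle genes (filled) and of the summed nonmuscle genes of the same family (open) in each library, as log2(scaled FPKM + 0.1). The nonmuscle forms lie above the muscle forms in every library.

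A wider list of 69 skeletal muscle genes, which includes the 10, was drawn from textbook knowledge, but with earlier results of these data known. It was set beside the 10 genes, and 29 of its genes were tested. Of these, 15 lay higher and 14 lower in Ob + Exe, with a median log2 difference of 0.16. By limma 1 (*Acta1*) was called higher and 0 lower, beside 0.996% and 2.74% of all genes tested. By voom 2 were called (*Acta1* and *Mybpc2*), beside 455 of all 18582 genes tested. Both exercised libraries lay above both obese ones for 6 genes and below for 6, beside 14.3% above and 18.4% below over all genes tested. Without the members, the summed level of the list was 32.2 and 36.8 scaled FPKM in Ob against 35.7 and 20.8 in Ob + Exe, the lowest in the library where the members' sum was highest. Of those 22 tested genes 8 had a positive and 14 a negative difference, with a median of -0.28. Of the 69 genes, 14 were listed at 0 in all libraries, and 13 of the 29 tested overlap another gene.

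In the thin filament, 3 of the 6 tested genes lay higher and 3 lower in Ob + Exe. *Tnni2*, the fast troponin I, was at 1.58 and 1.92 scaled FPKM in Ob against 2.93 and 2.24 in Ob + Exe, a log2 difference of 0.53 that did not pass the test. *Tpm2*, beta-tropomyosin, ran the other way, at 5.79 and 4.80 in Ob against 3.89 and 1.53 in Ob + Exe (-1.08, SE 0.49). *Tmod4*, which caps the filament ends, was at 0.799 and 1.79 in Ob against 1.92 and 0.417 in Ob + Exe. Genes of a single filament were thus found on both sides.

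In the thick filament, 2 of the 5 tested genes lay higher and 3 lower. *Mybpc2*, the fast myosin-binding protein C, was at 0.760 and 1.05 in Ob against 0.360 and 0.361 scaled FPKM in Ob + Exe (-1.11 on the log2 scale). *Myom1*, a crosslinker of the M-band, was at 3.19 and 4.95 in Ob against 3.89 and 0.868 in Ob + Exe, but it overlaps *Myl12a*, which averaged 26.8. *Mybph* was listed at 0 in both exercised libraries and at 0.0531 and 0.389 in the obese ones. None of these passed the limma test, and voom called *Mybpc2*.

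At the Z-disc, 2 of the 4 tested genes lay higher and 2 lower. *Csrp3*, a LIM protein of the Z-disc, was at 0.749 and 1.44 scaled FPKM in Ob against 0.317 and 0.639 in Ob + Exe (-1.05). *Tcap*, which caps titin, was at 0.224 and 0.462 in Ob against 0 and 0.229 in Ob + Exe. *Klhl41*, a ubiquitin ligase adaptor of muscle, was at 0.0555 and 0 in Ob against 0.243 and 0.132 in Ob + Exe. Of this list 0 genes were called by limma or voom, and 0 had an unadjusted p under 0.05. Over all 18582 genes tested, limma called 695, voom called 455, and 938 had such a p in limma. A count of 0 among 4 genes is therefore no result about them.

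Among the calcium genes, 4 of the 7 tested lay higher and 3 lower. *Atp2a1*, the calcium pump of fast fibers, was at 0.442 and 0.236 in Ob against 0.638 and 1.03 scaled FPKM in Ob + Exe (1.10 on the log2 scale, SE 0.61), and it overlaps *Rabep2* on the opposite strand, which averaged 6.35. *Srl*, a protein of the sarcoplasmic reticulum, was at 0.787 and 0.307 in Ob against 0.820 and 0.178 in Ob + Exe. *Scn4a*, the muscle sodium channel, lay within 0.348 and 0.469 in all libraries.

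Among the energy genes, 4 of the 7 tested lay higher and 3 lower. *Eno3*, the muscle enolase, was at 7.53 and 12.1 scaled FPKM in Ob against 10.4 and 5.85 in Ob + Exe. *Pgam2*, the muscle phosphoglycerate mutase, was at 3.29 and 1.68 in Ob against 2.96 and 3.10 in Ob + Exe. *Pygm*, the muscle glycogen phosphorylase, was at 1.22 and 2.61 in Ob against 1.72 and 1.26 in Ob + Exe. The groups overlapped for each of these 3 genes. *Mb*, myoglobin, named after its value was seen, had the largest positive log2 difference of the wider list at 2.08, with 0.483 and 0 in Ob against 1.13 and 0.741 in Ob + Exe, and did not pass the test.

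**Figure D4:**
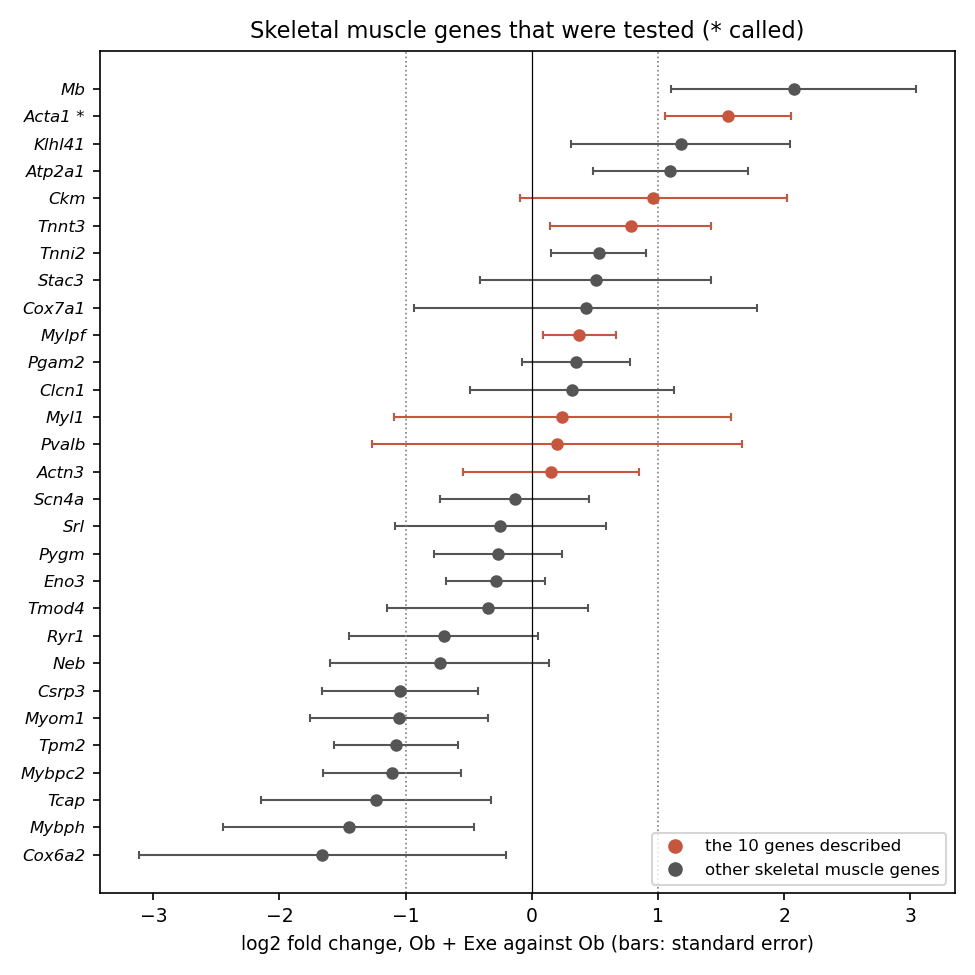
Log2 fold change of Ob + Exe against Ob for the 29 skeletal muscle genes tested, as points with the standard error of the limma fit; the dotted lines mark 1 and -1. The members lie to the right of 0, and 14 other muscle genes lie to the left of it.

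Genes of other muscle types and of muscle precursors were set beside these. Of 14 slow and cardiac isoforms, 7 were listed at 0 in all libraries and 6 were tested, of which 1 lay higher and 5 lower. *Tnnt1*, the slow troponin T, was at 8.03 and 8.40 scaled FPKM in Ob against 8.96 and 7.47 in Ob + Exe, above every fast member. *Tnni3*, the cardiac troponin I, was at 2.56 and 4.69 in Ob against 3.33 and 1.54 in Ob + Exe. *Tnnc1*, the slow and cardiac troponin C, was called lower at 0.897 and 1.11 in Ob against 0.367 and 0.305 in Ob + Exe (-1.34, SE 0.54, adjusted p = 0.96 in limma), and it kept that call in 3 of 14 alternative settings. It overlaps *Nisch* on the opposite strand, which averaged 90.6. Of the developmental myosins *Myh3* and *Myh8*, neither reached the minimum. Of 9 genes of satellite cells and myogenic factors, which include *Myod1* and *Myog*, 8 were listed at 0 in all libraries, and *Pax7* was at 0.0847 in Ob + Exe replicate 1 alone.

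Of 10 smooth muscle and pericyte genes, 6 were tested, of which 2 lay higher and 4 lower and 0 were called by limma or voom, with 0 at an unadjusted p under 0.05. Beside these stand 695 genes called by limma, 455 by voom and 938 at such a p in limma, of all 18582 tested. *Smtn*, smoothelin, was at 7.79 and 10.1 scaled FPKM in Ob against 9.19 and 4.51 in Ob + Exe. *Rgs5*, a pericyte gene, was at 2.36 and 2.08 in Ob against 2.41 and 3.63 in Ob + Exe. These genes summed to 15.5 and 17.3 in Ob against 15.6 and 13.6 in Ob + Exe.

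Markers of tissues around the marrow and of marrow cells were summed in the same way. The 6 tendon genes summed to 0.385 and 0.398 scaled FPKM in Ob against 0.328 and 1.39 in Ob + Exe. The 6 skin genes summed to 0.544 and 0.228 in Ob against 0.804 and 0.361 in Ob + Exe, with 4 of them at 0 in all libraries. The 8 cartilage genes summed to 1.31 and 1.58 in Ob against 0.654 and 0.777 in Ob + Exe. The full order of the 4 libraries in each of these 3 sums differed from that of the members' sum. The skin sum was lowest in Ob replicate 2, as the members' sum was. All 3 sums rest on genes at low levels. The 6 Schwann cell genes summed to 20.4 and 16.3 in Ob against 14.5 and 18.7 in Ob + Exe, and the 6 endothelial genes to 23.8 and 25.4 in Ob against 20.1 and 13.3 in Ob + Exe. The 12 osteoblast and osteocyte genes summed to 24.8 and 33.1 in Ob against 20.03 and 23.2 in Ob + Exe. Of the 9 tested, 2 (*Col1a1* and *Bglap2*) were called lower by limma, beside 2.74% of all genes, and voom called *Col1a1* alone. The 8 adipocyte genes summed to 80.5 and 83.9 in Ob against 129 and 108 in Ob + Exe, with 0 of the 6 tested called by limma or voom and 1 at an unadjusted p under 0.05. Of all 18582 genes tested, limma called 695, voom called 455 and 938 had such a p in limma. *Fabp4*, a fatty acid carrier, alone was at 59.5 and 57.3 in Ob against 103.8 and 78.5 in Ob + Exe, and the other 7 adipocyte genes summed to 20.96 and 26.6 in Ob against 25.5 and 29.5 in Ob + Exe, where the groups overlapped. The 8 B cell genes summed to 200 and 208 in Ob against 160 and 126 in Ob + Exe. All 8 were tested and 2 (*Cd79a* and *Igll1*) were called lower by limma, beside 2.74% of all genes, and voom called the same genes. The smallest adjusted p over all genes was 0.73 in limma. The neutrophil sum was 47461 and 27162 in Ob against 34870 and 63426 in Ob + Exe, lowest in Ob replicate 2 like the members. The part of any of these cell types in the levels of the muscle genes was not tested.

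The genes whose pattern over the 4 libraries was most like the mean of the 7 tested members were sought among 14075 genes with a mean of at least 0.5 scaled FPKM. Likeness was the root mean square distance of centred log2 profiles, over 4 libraries only, and it carries no test. The mean centred profile was 0.33 and -0.94 for the Ob replicates, -0.12 for Ob + Exe replicate 1 and 0.73 for Ob + Exe replicate 2. The nearest genes were *Abca13* at 0.0363, *5830432E09Rik* at 0.0417, *Stfa2l1* at 0.0767, *Gm8399* at 0.0835 and *Mfsd9* at 0.0894. *Aplnr*, *Hint3*, *Gm12276*, *4930562F07Rik* and *Gm16091* followed, up to a distance of 0.115. The wider muscle list had only 13 genes among the candidates, of which *Atp2a1* was nearest at 0.330, ranked 366. The members lay farther from their own mean, from 0.265 for *Tnnt3* and 0.526 for *Acta1* to 1.17 for *Myl1*. The nearest genes were picked for a small distance among 14075 and the members were not, so this contrast was built in. The mean also includes *Myl1*, *Ckm* and *Pvalb*, which were listed at 0 in some libraries.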

How the data were processed

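Whole tibial marrow of 2 Ob and 2 Ob + Exe mice was measured by RNA-seq. Per the study's methods and processing notes, the authors enriched poly-A RNA, trimmed reads with fastp, removed rRNA reads, aligned to GRCm38 with HISAT2 and quantified transcripts with StringTie. The authors deposited, per transcript, the coverage (a signal not normalized for depth) and the FPKM.

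FPKM were summed by gene name. Genes with a mean of at least 0.1 FPKM were kept, libraries were brought to one scale by median-of-ratios factors, and log2(FPKM + 0.1) was fitted in R 4.3.3 with limma 3.58.1 (lmFit, eBayes with an intensity trend, 2 residual and 3.8 prior degrees of freedom). Call thresholds were those of the authors' methods. Their DESeq2 needs counts and was not used. Read equivalents are coverage times length over 150 bases. The 2 mice per group limit the precision. The p-values set a difference against a variance between these libraries that limma moderated with that of other genes. Tables and figures were made with Python 3.11.15, pandas 2.3.3 and matplotlib 3.10.9. The test was tested on simulated data.

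The members and all gene lists were chosen with earlier results of these data known. Named genes are the members, the 3 most abundant genes of each related muscle list outside the members, any myogenic gene above 0 and the 10 nearest profiles. Alternatives were other minimum levels, pseudocounts and scalings, voom, no trend, a replicate block, the most abundant transcript, and leaving out each library. The crossed block was added after seeing the data. Gene positions are those of the files, and promoters are from RefSeq.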

Additional observations from a re-analysis of the deposited data

How the results depend on the processing

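The number of genes called over all genes was 695. It was 269 with a minimum mean of 1 FPKM, 222 with a pseudocount of 1, 455 with voom and 1056 without the trend, and ranged from 743 to 1918 without 1 library. Of the 10 members 1 was called, against 2 with the most abundant transcript (*Mylpf* and *Tnnt3*) and 0 to 2 without 1 library. Of the wider list 1 was called, against 2 with every gene above 0, with voom or with the most abundant transcript, 3 without the trend and 3 with the replicate block, and 0 to 5 without 1 library. The members' median of 0.38 became 0.96 with the most abundant transcript and ranged from 0.13 to 1.56 without 1 library. The most abundant transcript was chosen by its mean over these same libraries, so results with it are no separate support.

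The replicate numbers are shared by the groups, and the study describes no pairing of mice. The correlation of the replicate differences was -0.11 over all genes tested and -0.24 over those with a mean of at least 1 FPKM. It compares only the replicate difference of each group, so it cannot decide whether the libraries were paired. The replicate block called 738 genes and changed no call among the members. The crossed block, chosen after seeing the data, called 796 genes and 4 of the wider list.

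*Acta1* kept its call in 11 of 15 alternatives. *Myl1* fell to -1.01 with a pseudocount of 0.01 and to -0.996 with voom. *Srl* was 0.0818 with voom. With the most abundant transcript *Srl* was 1.23, *Eno3* 1.78, *Tnni3* 0.27, *Actg1* -0.84, *Tnnt1* -2.42 and *Smtn*, which gained a call, -6.29. The cause was not tested. Of 41 named genes tested, 25 kept their sign throughout. Without 1 library the log2 difference ranged from -1.73 to 2.22 for *Myl1*, -0.44 to 2.37 for *Ckm*, -0.37 to 0.68 for *Actn3*, -1.44 to 1.84 for *Pvalb*, -1.34 to 0.63 for *Tmod4*, -1.11 to 0.61 for *Srl*, -0.31 to 0.0372 for *Scn4a*, -0.70 to 0.12 for *Eno3*, -0.11 to 0.82 for *Pgam2*, -0.78 to 0.25 for *Pygm*, -0.14 to 0.12 for *Tnnt1*, -0.96 to 0.0502 for *Smtn*, -0.0064 to 1.43 for *Hint3* and -0.27 to 1.21 for *4930562F07Rik*. Except for *Acta1* and *Mylpf*, each member rests on at most 116 read equivalents in a library.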
